A study of Homo sapiens with 7 samples.

Results

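The 9 genes studied here encode enzymes of cholesterol synthesis: HMGCS1, MVK, PMVK, MVD, FDPS, FDFT1, SQLE, LSS and CYP51A1. They were chosen by name, as the rows of the expression table whose symbols include 1 of the 9, and each symbol was found in exactly 1 row, so 9 of 30032 loci are described against 22065 named loci with a usable strand. All data came from cultured HepG2 cells, a human liver cancer cell line, with no treatment named and 1 sample for each of 7 assays: native MNase-Seq for nucleosome positions, RNA-Seq, and ChIP-Seq of 3 activation marks (H3K27ac, H3K4me3, H3K9ac) and 2 repressive ones (H3K9me3, H3K27me3). There were no groups of samples and no replicate samples, so no test was possible and every comparison below is a description. HepG2 is a single line and stands neither for normal hepatocytes nor for liver cancer in general. Hepatocyte markers were present, with 8 of the 9 found in a single row at 56.6 to 10011 FPKM (fragments per kilobase of transcript, scaled to the size of the library), while 11 markers of blood, endothelial, fibroblast and neural cells lay between 0 and 1.16 FPKM. The nucleosome list held 14217405 positions and the 5 mark lists 26271 to 95886 peaks each, with no read counts, so the number of reads behind each single position is not known.

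Cells build cholesterol from acetyl-CoA. HMGCS1 makes HMG-CoA, from which mevalonate is formed, and MVK, PMVK and MVD convert mevalonate into isopentenyl diphosphate. FDPS joins these units to farnesyl diphosphate, the branch point between sterols and the non-sterol isoprenoids. FDFT1 (squalene synthase), SQLE (squalene epoxidase), LSS (lanosterol synthase) and CYP51A1 (lanosterol 14-alpha demethylase) then carry the sterol branch. The liver is a main site of this synthesis, and the genes are known targets of the transcription factor SREBP2, which acts when sterols are scarce. H3K4me3, H3K9ac and H3K27ac are marks of active promoters, H3K27ac also of enhancers, and H3K27me3 and H3K9me3 are marks of silenced chromatin.

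All 9 rows, 8 of them with a member as the only symbol and 1 shared by MVD and CYBA, were at 10 FPKM or more, a level that 28.5% of the named loci reached, while 51.4% reached 1 FPKM. The RNA-Seq sample has FPKM in 2 columns, called run 1 and run 2 here, a name that the column headers do not give. The median of the members was 87.7 FPKM as the mean of both runs, against 1.26 FPKM over all named loci. It was 11.9 FPKM over the 11352 loci at 1 FPKM or more, which are called expressed below. The difference of the medians on the log2(FPKM + 0.01) scale was 6.11, from 6.46 for the members and 0.35 for all named loci. Among the expressed loci alone, the middle member stood at percentile 92.7.

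In the mevalonate arm the levels were spread widely. HMGCS1 had 145.7 FPKM in run 1 and 146.2 in run 2. MVK had 21.3 FPKM in both runs, and PMVK had 10.8 in run 1 and 12.2 in run 2. These kinases were the lowest of the 9 genes, and PMVK, at percentile 48.8 of the expressed loci, was the only member below their median. The row with MVD had 280.1 FPKM in run 1 and 266.2 in run 2, but this row also carries the symbol CYBA, a subunit of the phagocyte NADPH oxidase, and 1 value is given for both genes, so the level of MVD itself is not known.

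The branch point enzyme FDPS had 116.4 FPKM in run 1 and 112.1 in run 2. In the sterol branch, FDFT1 was listed at 220.7 and 216.8 FPKM, SQLE at 85.6 and 89.9, LSS at 60.6 and 58.2, and CYP51A1 at 78.0 and 74.8. FDFT1 thus stood above the next enzymes of its branch. Ordered by the mean, the members ran MVD with CYBA, FDFT1, HMGCS1, FDPS, SQLE, CYP51A1, LSS, MVK and PMVK. No 2 neighbours in this order overlapped between the runs. The closest were SQLE and CYP51A1, with means 1.15-fold apart, and the widest step was from LSS to MVK, 2.78-fold. The runs differed by a median of 3.94% of the mean for the members, against 4.39% for the expressed loci, and PMVK differed most, by 12.9%. Whether the runs are separate cultures is not stated, so this spread may be technical only.

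**Figure D1:**
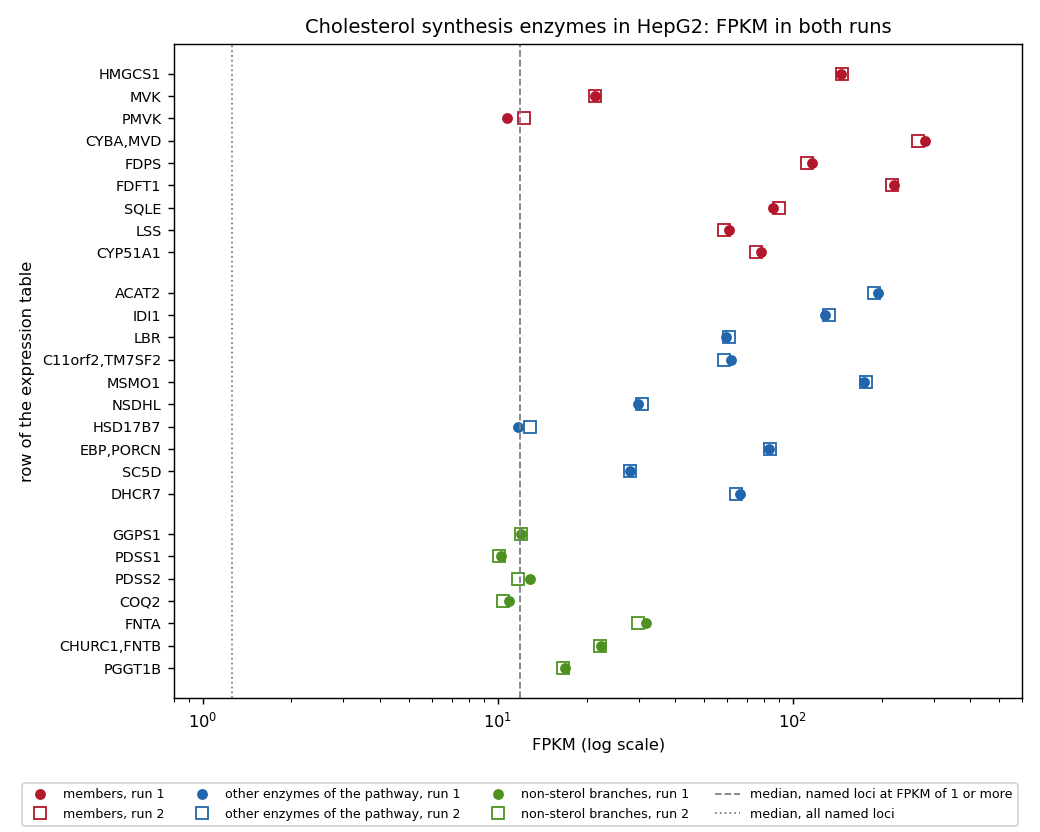
FPKM on a log axis of the 9 member rows, 10 other enzymes of cholesterol synthesis and the enzymes of the non-sterol branches, with a filled circle for run 1 and an open square for run 2. Vertical lines are the medians of all named loci (1.26) and of the expressed ones (11.9). The members lie between 11.5 and 273.1 as means, and PMVK alone lies just below the median of the expressed loci.

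The DNA at the start sites is shown for 5 members, chosen to show the boxes described next: MVK, MVD and FDPS for their CCAAT boxes, LSS for its GC boxes, and PMVK as a window without CCAAT. The windows run from 250 bases before to 50 bases after the start in RefSeq (GRCh38.p14, 5′ to 3′ along the gene); this build differs from that of the nucleosome map, so they were not placed on it. Of the members, 7 had such a window. Capitals mark CCAAT, read as ATTGG on the other strand, GGGCGG, read as CCGCCC on the other strand, and the sterol element core TCACNCCA.
MVK: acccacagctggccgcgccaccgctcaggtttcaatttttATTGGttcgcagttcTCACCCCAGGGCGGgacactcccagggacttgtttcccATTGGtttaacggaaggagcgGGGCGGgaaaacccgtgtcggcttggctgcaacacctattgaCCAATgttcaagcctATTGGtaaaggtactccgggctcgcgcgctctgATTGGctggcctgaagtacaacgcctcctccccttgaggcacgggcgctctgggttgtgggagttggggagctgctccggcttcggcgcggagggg
MVD: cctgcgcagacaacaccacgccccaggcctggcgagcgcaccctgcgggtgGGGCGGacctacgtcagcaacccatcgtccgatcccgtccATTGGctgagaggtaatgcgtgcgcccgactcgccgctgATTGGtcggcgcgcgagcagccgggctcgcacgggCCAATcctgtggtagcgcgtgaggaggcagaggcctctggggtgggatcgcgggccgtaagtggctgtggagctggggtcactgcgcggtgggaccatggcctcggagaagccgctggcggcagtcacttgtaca
FDPS: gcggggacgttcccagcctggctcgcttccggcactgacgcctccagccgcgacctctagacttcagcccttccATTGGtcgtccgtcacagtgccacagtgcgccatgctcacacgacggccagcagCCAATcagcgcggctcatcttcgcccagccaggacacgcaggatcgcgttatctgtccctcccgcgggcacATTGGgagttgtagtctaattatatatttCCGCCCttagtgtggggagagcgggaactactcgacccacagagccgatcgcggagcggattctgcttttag
LSS: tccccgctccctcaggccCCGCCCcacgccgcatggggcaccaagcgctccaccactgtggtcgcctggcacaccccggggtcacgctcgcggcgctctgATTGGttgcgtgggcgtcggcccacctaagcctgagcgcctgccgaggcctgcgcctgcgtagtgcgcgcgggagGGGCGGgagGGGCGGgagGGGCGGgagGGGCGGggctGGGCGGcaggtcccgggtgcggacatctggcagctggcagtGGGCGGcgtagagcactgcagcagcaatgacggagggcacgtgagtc
PMVK: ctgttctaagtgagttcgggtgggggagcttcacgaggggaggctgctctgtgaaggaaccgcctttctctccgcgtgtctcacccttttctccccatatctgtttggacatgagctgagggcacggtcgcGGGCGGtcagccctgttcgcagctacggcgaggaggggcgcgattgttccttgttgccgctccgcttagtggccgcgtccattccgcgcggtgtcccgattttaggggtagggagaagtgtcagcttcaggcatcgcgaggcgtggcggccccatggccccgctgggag

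CCAAT, the box bound by NF-Y, was found on either strand in 5 of 7 members and in 35.7% of 27305 RefSeq promoters. At least 2 were found in 4 of 7 (HMGCS1, MVK, MVD and FDPS), against 11.3% of promoters. MVK had 5, MVD and FDPS 3 each, HMGCS1 2 in 1 of its 2 windows and LSS 1, while PMVK and CYP51A1 had 0. The GC box GGGCGG, bound by SP1, was in all 7 windows and in 44.6% of promoters, with 7 copies at LSS. The core of the sterol regulatory element, searched as TCACNCCAC, was in 0 of 7 and 1.15% of promoters. With the last base left open (TCACNCCA), a form chosen after the first search, it was in 1 of 7, MVK, where it stands directly before a GC box, and in 3.93% of promoters. The E-box CACGTG was in 1 of 7 (LSS) and 7.43% of promoters. These are matches of letters and not binding sites. The windows of MVK and MMAB overlap by 211 bases on opposite strands, so the boxes of MVK within them are those of MMAB too. The members' windows had a median of 27 CpG dinucleotides, against 14 for all promoters. This background holds promoters of silent genes too, and none of expressed genes alone was computed. Among 9 other enzymes of the pathway with a window, CCAAT was in 7, GGGCGG in 7 and TCACNCCA in 1.

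Over the 9 loci plus 10 kb on either side, 147 of 3144 nucleosome positions carried at least 1 mark. This is 4.68% (exact 95% binomial interval 3.96 to 5.47, counting error only). The share in the same windows of all expressed loci was 2.63% (2.62 to 2.65), but the members were shorter, with a median locus of 26.4 kb against 45.5 kb, and in number the members had a median of 14 marked positions against 13. H3K4me3 was on 103 of the 147 positions, H3K27ac on 94 and H3K9ac on 84. The trivalent mark of all 3 on 1 nucleosome, called "T", was the most frequent combination with 56 positions, or 38.1% (30.2 to 46.5). Without CYP51A1 its share was 35.8%. In the windows of the expressed loci it made up 33.7%, and in those of all named loci 28.1%. The interval takes positions as independent, while "T" often lay side by side, as at MVD, so no comparison rests on it. H3K4me3 alone followed with 26 positions, H3K27ac alone with 24 and H3K4me3/H3K9ac with 15.

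**Figure D2:**
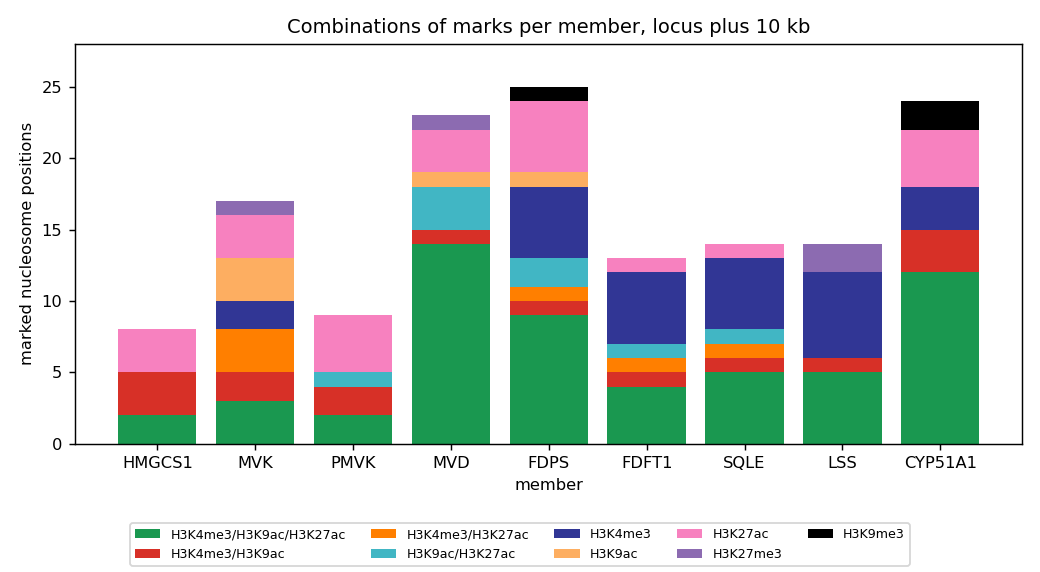
Number of marked nucleosome positions per member over the locus plus 10 kb, with each bar divided by the exact combination of marks. FDPS has 25, CYP51A1 24 and MVD 23, while HMGCS1 has 8 and PMVK 9; "T" makes up 14 positions at MVD and 2 at HMGCS1.

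H3K27me3 and H3K9me3 were on few positions, 7 of the 147 together. The nearest to a listed start were an H3K27me3 position of MVK at -3.51 kb and an H3K9me3 position of CYP51A1 at -8.87 kb. H3K27me3 was found at 3 of 9 members, MVK, MVD and LSS, and at 20.2% of the expressed loci. H3K9me3 was found at 2 of 9, FDPS and CYP51A1, against 29.3% of the expressed loci. Over all named loci these shares were 31.2% for H3K27me3 and 31.9% for H3K9me3. Within 2 kb of the listed start, 0 of 9 members had either mark, where 2.53% of expressed loci did. Both H3K27me3 positions of LSS lay beyond the far end of the gene, 47.6 and 49.2 kb from its start, and 2 of the 7 positions lay inside a member locus, 26.1 kb into FDPS and 124.6 kb into CYP51A1.

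Each locus is listed with 1 start and 1 end, and the start site was taken as the end given by the strand. For 3 members, MVK, FDPS and CYP51A1, the same coordinates are listed for another gene as well, so the ends belong to the pair and not to the member alone. The row of MVD covers CYBA as well. The members are therefore described by their stretches of nucleosomes with an activation mark, in which neighbouring marked positions lay at most 1 kb apart. There were 28 stretches, of which 14 held at least 1 "T" and 9 held 3 or more.

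**Figure D3:**
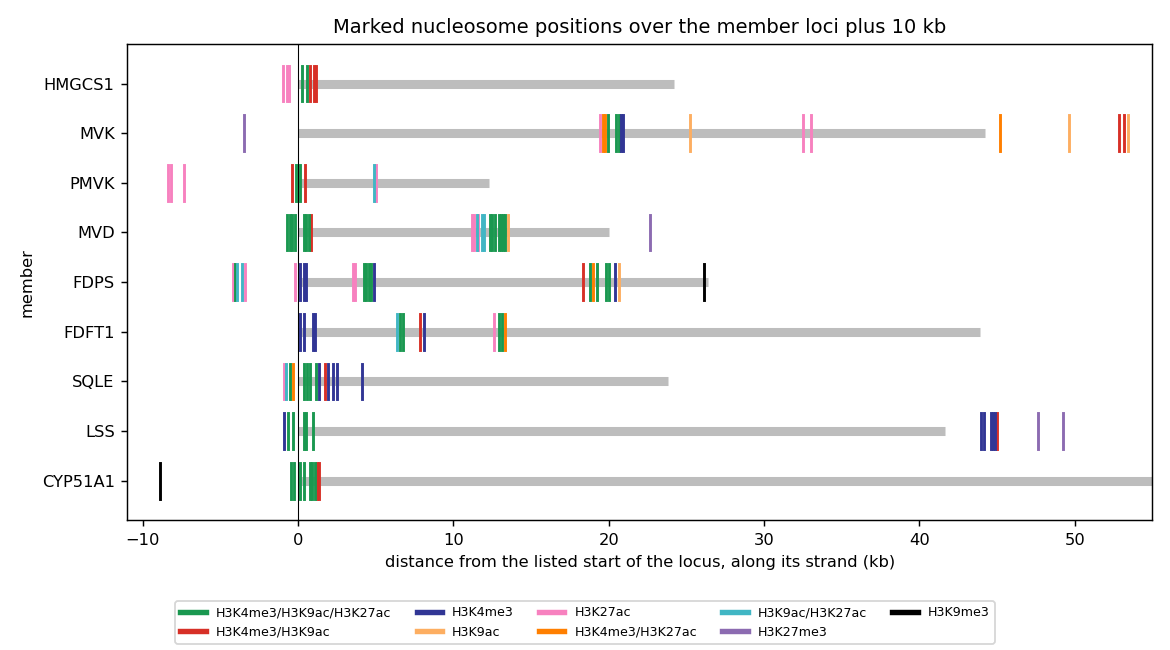
Marked nucleosome positions along the member loci plus 10 kb, by distance in kb from the listed start in the direction of transcription. Grey bars are the loci (CYP51A1 is drawn to 55 kb), vertical lines are marked positions and their colour gives the combination. The trivalent positions of HMGCS1, PMVK, SQLE and LSS sit at 0 kb, whereas those of MVK, FDPS and FDFT1 lie inside the locus, beginning 19.9, 4.22 and 6.56 kb from the listed start, except 1 of FDPS at -4.05 kb.

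HMGCS1 lies on chromosome 5 from 43289481 to 43313646 (hg19, as for all coordinates of loci), on the minus strand. Its 8 marked positions formed 1 stretch around the start. Downstream, "T" was at +220 and +585 bp and H3K4me3/H3K9ac at +765, +1002 and +1180 bp. Upstream, at -615, -725 and -950 bp, the nucleosomes had H3K27ac alone, and no "T" was found on that side. HMGCS1, second only to FDFT1 among the member rows with 1 symbol, thus had 2 "T" within 2 kb of its start, as PMVK had at a level 12.7-fold lower.

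MVK is listed on chromosome 12 from 109991282 to 110035502, with the same coordinates as MMAB, an enzyme of vitamin B12 metabolism on the other strand. Neither end of this locus carried a stretch of "T", and the listed start had 0 marked positions within 2 kb. The RefSeq windows of MVK and MMAB overlap by 211 bases on opposite strands, but their listed starts are 44.2 kb apart. The ends of the locus therefore cannot be the RefSeq starts of both genes. Counts and distances at the listed start may not describe the start of MVK. A single stretch of 8 nucleosomes from 110010662 to 110012296, inside the locus, held the 3 "T" of the window, with H3K4me3/H3K27ac and H3K27ac on one side and H3K4me3 alone on the other. A gap of 542 bp between neighbouring midpoints separated the first "T" from the others. MMAB was at 9.63 FPKM, 2.21-fold below MVK.

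PMVK, on chromosome 1 from 154897208 to 154909484, had a short and even stretch: H3K4me3/H3K9ac at -417 bp, "T" at -139 and +145 bp, and H3K4me3/H3K9ac at +430 bp. The positions with H3K27ac alone lay apart, from -8.36 to -7.37 kb and at +5.03 kb.

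The locus of MVD and CYBA, on chromosome 16 from 88709696 to 88729702, had a stretch at its start and another inside. At the start there were 7 "T", 4 upstream and 3 downstream, followed by H3K4me3/H3K9ac at +859 bp. The listed start of MGC23284, on the opposite strand, is 50 bp away from this start in the table, so the upstream "T" are as close to that locus, which was at 3.62 FPKM. The inner stretch, from 11.2 to 13.5 kb, held 14 nucleosomes with 7 "T", and in its first part H3K27ac without H3K4me3.

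FDPS, on chromosome 1 from 155274594 to 155300948, shares its coordinates with RUSC1 and C1orf104. The listed start had H3K4me3 alone at +137, +352 and +527 bp and no "T" within 2 kb. Inside the locus, 4 "T" stood together from 4217 to 4702 bp after a gap of 540 bp between neighbouring midpoints. Another 4 were found from 18.8 to 20.0 kb. Which of these stretches belongs to FDPS (114.2 FPKM) and which to RUSC1 (11.3 FPKM) cannot be told from the table.

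FDFT1, on chromosome 8 from 11653092 to 11696966, has coordinates of its own, and its listed start was marked by H3K4me3 alone at 4 positions from +144 to +1054 bp. Where FDFT1 starts within this locus could not be placed, so marks at the listed start may not be those of its own start. Its 4 "T" lay in pairs further in, at 6.56 and 6.74 kb and at 12.9 and 13.1 kb. The first pair was followed by a gap of 1097 bp between neighbouring midpoints, and then by H3K4me3/H3K9ac at 7.84 kb.

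SQLE, on chromosome 8 from 126010720 to 126034525, had the longest stretch of those with 3 or more "T", 3520 bp with 13 nucleosomes, all of them marked. "T" was at -544 bp and, downstream, at +383, +546, +791 and +1131 bp, after which H3K4me3 without H3K27ac continued to +2481 bp. LSS, on chromosome 21 from 47607310 to 47648937, had "T" at -629 and -329 bp and at +356, +484 and +966 bp. Its upstream side also faces the listed starts of 3 loci on the other strand, YBEY and loci of MCM3AP, 221 bp away in the table and at 1.17 to 4.75 FPKM. CYP51A1, on chromosome 7 from 91570165 to 91764059, shares its coordinates with AKAP9, a scaffold protein gene. Its own end had 7 "T" from -442 to +1058 bp and H3K4me3/H3K9ac at +1183 and +1358 bp. The opposite end, 194 kb away, where AKAP9 (8.92 FPKM) is listed to start, had 5 "T".

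Within 2 kb of the listed start there were 28 "T" in all, 18 downstream and 10 upstream. H3K4me3/H3K9ac was found there in 9 positions, and at HMGCS1, PMVK, MVD and CYP51A1 it followed the last "T" on the downstream side. At SQLE 1 position with H3K4me3 alone came between.

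**Figure D4:**
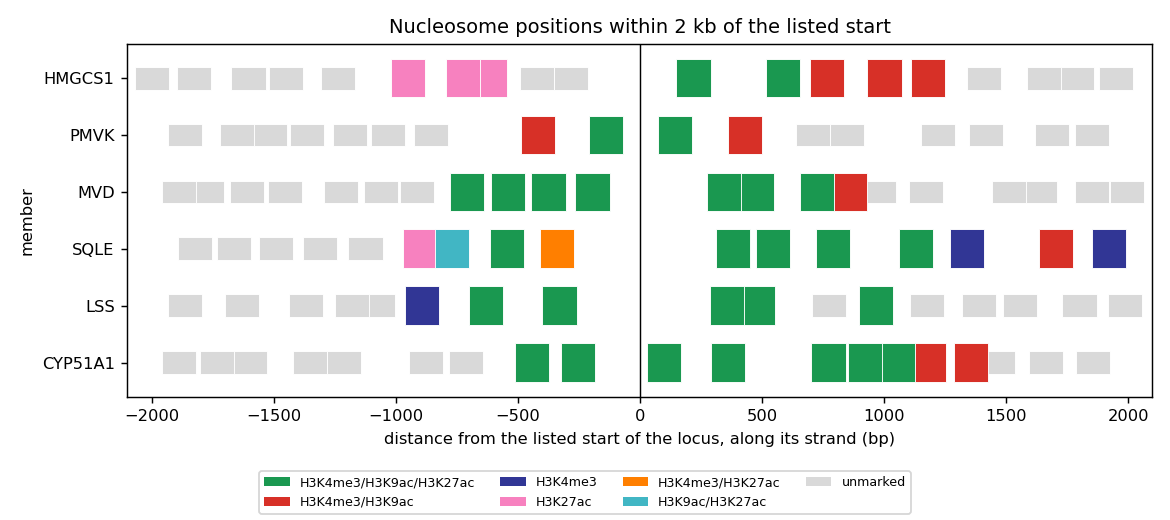
All nucleosome positions within 2 kb of the listed start, for the 6 members with "T" there, by distance in bp along the strand. Tall coloured blocks are marked positions, low grey blocks unmarked ones. A space without positions is seen over the start in HMGCS1 (503 bp between midpoints), MVD (540), SQLE (722) and LSS (685), and "T" lies next to it on at least 1 side.

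Nucleosome positions were absent over several of these starts. The largest distance between neighbouring midpoints within 500 bp of the start was 503 bp at HMGCS1, 540 bp at MVD, 722 bp at SQLE and 685 bp at LSS, against medians of 435 bp at 6375 expressed and 315 bp at 5828 silent loci (under 0.1 FPKM) with coordinates and a symbol of their own. Among these expressed loci HMGCS1 stood at percentile 64.1, MVD at 70.2, SQLE at 87.0 and LSS at 84.9. Among the silent ones they stood at 80.2, 82.4, 88.2 and 87.6, so distances as large were found at other loci of both kinds. PMVK with 440 bp and CYP51A1 with 413 bp lay near the expressed median. At the listed starts of MVK (250 bp), FDPS (240 bp) and FDFT1 (335 bp), which had no "T", the distance was smaller than at the median expressed locus. Gaps of 542, 540 and 1097 bp stood beside "T" inside these loci. The largest gap was 565 bp in the other inner stretch of FDPS and 355 bp in that of the second pair of FDFT1. No background was computed for inner gaps, so they cannot be set against the values at starts.

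The members did not stand above other expressed loci in their number of "T". All 9 had at least 1 "T" in the locus plus 10 kb, as 94.9% of the expressed and 63.2% of all named loci did. At least 3 "T" within 2 kb of the listed start were found at 4 of 9 members, MVD, SQLE, LSS and CYP51A1, and at 47.2% of the expressed loci and 26.7% of all named loci. Among named loci at 10 FPKM or more the share was 55.2%. Of the 6 members with coordinates of their own 3 had as many, against 56.0% of the expressed loci of this kind. These 3 include MVD with CYBA, a row that holds more than 1 gene. FDFT1, whose own start could not be placed, enters the 6 with 0. Since 3 listed starts had no "T" nearby, the most "T" in any 4 kb of the locus plus 2 kb was also counted, a measure added after these values had been seen. By it, 6 of 9 members had 3 or more, against 71.6% of the expressed loci, 79.3% of those at 10 FPKM or more and 44.1% of all named loci, and the median was 4 in the members and 4 in the expressed loci. FDFT1 (218.7 FPKM) and HMGCS1 (145.9 FPKM) had 2 "T" by this count. Of 1551 expressed loci with the same number, 90% were at 54.5 FPKM or less. FDPS, with 4 "T" and 114.2 FPKM, and MVD with CYBA also lay above the 90th percentile of the expressed loci with as many, 72.0 and 96.3 FPKM. Among all expressed loci, FDFT1 stood at percentile 97.4, HMGCS1 at 95.9, FDPS at 94.6 and MVD with CYBA at 98.0. Their place above a 90th percentile was thus not particular to loci with their number of "T". CYP51A1 had 7 "T" and MVD with CYBA 7, at 76.4 and 273.1 FPKM, and the lowest member, PMVK, had 2. Across the 9 members, the rank correlation with FPKM was 0.40 for "T" over the locus plus 10 kb, 0.13 for the densest 4 kb and 0.09 within 2 kb of the start (Spearman's rho, a description over genes measured in the same libraries).

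**Figure D5:**
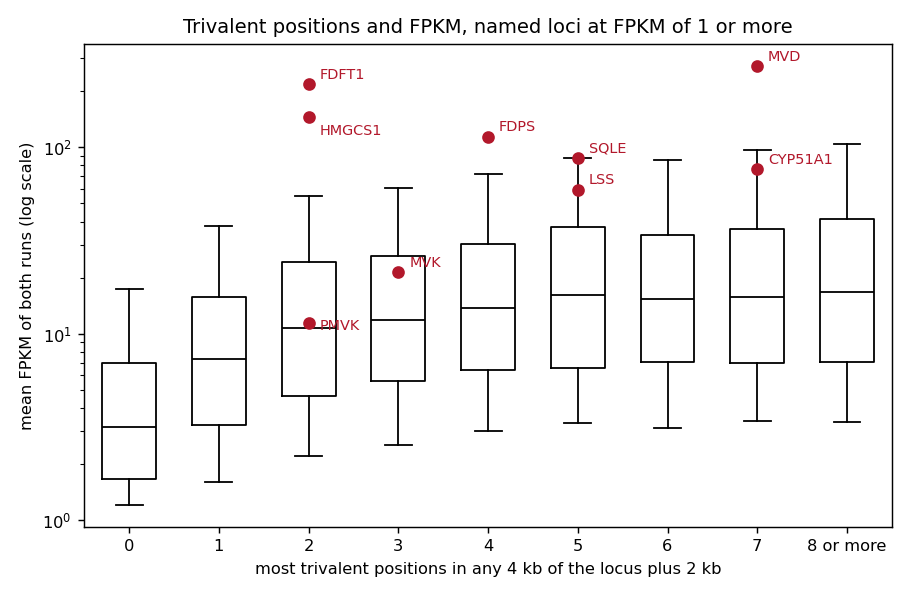
Mean FPKM (log axis) by the most "T" in any 4 kb of the locus plus 2 kb. Boxes give the quartiles and whiskers the 10th and 90th percentiles of the expressed named loci, and the points are the members. HMGCS1 and FDFT1, with 2 "T", lie above the 90th percentile of 54.5, FDPS, with 4, above that of 72.0, and MVD with CYBA, with 7, above that of 96.3, while PMVK, with 2, lies at the middle of the group with 2. Among all expressed loci, HMGCS1, FDFT1, FDPS and MVD with CYBA stand at percentiles 94.6 to 98.0.

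Other enzymes of the pathway were at similar levels. All 10 described here were at 10 FPKM or more, as 28.5% of the named loci were. Their median was 62.7, but TM7SF2 (60.0) shares its row with C11orf2 and EBP (83.5) with PORCN. ACAT2, the thiolase before HMGCS1, had 193.9 FPKM in run 1 and 189.1 in run 2. MSMO1, listed as SC4MOL, a sterol oxidase, had 175.4 as a mean, and IDI1, which isomerises isopentenyl diphosphate, 130.5. HSD17B7, a sterol ketoreductase, was the lowest of the 10 with 12.3 FPKM. Of these 10, 4 had 3 or more "T" within 2 kb of the start, against 47.2% of the expressed loci. LBR had 5, ACAT2 4 and MSMO1 and DHCR7 3 each. ACAT2, IDI1 and TM7SF2 share their coordinates with other loci, so their listed starts may not be their own. IDI1 had 0 "T" within 2 kb of the listed start but 7 in its densest 4 kb. In the densest 4 kb 7 of the 10 had 3 or more, against 71.6% of the expressed loci.

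Enzymes that draw isoprenoids away from sterols had a lower median, with overlapping ranges. DHDDS, of dolichol synthesis, is listed in 2 rows, 1 shared with HMGN2 at 127.8 FPKM and 1 listed at 0, and was left out of the median. The other 7 genes of this list had a median of 12.3 FPKM, from 10.2 at PDSS1 (coenzyme Q side chain) to 30.9 at FNTA (protein farnesylation), and FNTB shares its row with CHURC1. MVK (21.3 FPKM) and PMVK (11.5 FPKM) lay inside this range. GGPS1, which extends farnesyl to geranylgeranyl diphosphate, had 12.0 FPKM and 11 "T" within 2 kb of its start, while FDPS, whose product it uses, was at 114.2. The branch enzymes had a median of 4 "T" within 2 kb of the start and the members 2, so the list with the lower FPKM had the higher median count. MVK, FDPS and FDFT1 enter the median of the members with 0, as their "T" lay away from the listed start. PDSS1 and FNTB share their coordinates with other loci too. In the densest 4 kb the medians were 6 for the branch enzymes and 4 for the members. With 7 and 9 genes and 1 library per mark, no test of these differences was made.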

How the data were processed

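HepG2 nucleosome positions (native MNase-Seq), peaks of 5 histone marks (ChIP-Seq) and RNA-Seq, 1 sample each, were analysed. Per the labels, reads were aligned to hg19, BWA being listed for the chromatin libraries and TopHat2 2.1.0, Bowtie, HOMER 4.7 and edgeR for RNA-Seq, their roles not being given. The authors called positions with DANPOS and peaks with NUCLIZE at those positions, filtered against input, and deposited coordinates without heights. The authors deposited FPKM in 2 columns in the Cuffdiff layout, which add up to 857059 and 982212; their own comparison of the columns was not used.

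Each peak was assigned to the position it overlapped most, and all 319086 peaks reached 3 bp beyond the position of their identifier. Strand came from the order of locus numbers and was the same as in RefSeq for 95.2% of 12947 named loci and for 7 of 7 members found there. A position was counted by its midpoint. Shares have exact Clopper-Pearson intervals. Members and lists were chosen with earlier results of these data known: the genes named are the members, 10 other pathway enzymes (2 more of that list are not reported here), 8 enzymes of non-sterol branches and loci overlapping a member window. The counting was tested on simulated data. Alternatives were single runs, pseudocounts, filters, windows, overlaps and the choice of start. Tables were handled in pandas 2.3.3 under Python 3.11.15, intervals came from scipy 1.17.1 with numpy 2.4.6, and plots from matplotlib 3.10.9. The sterol element without its last base, the densest 4 kb and the subset with own coordinates were added after seeing the data.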

Additional observations from a re-analysis of the deposited data

How the results depend on the processing

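The median FPKM of the members, 87.7 as the mean of the runs, was 85.6 in run 1 and 89.9 in run 2, and 82.1 without the row that MVD shares with CYBA (chosen after seeing the data). Their median percentile was 96.2 among all named loci, 94.0 among loci at 0.1 FPKM or more and 92.7 among those at 1 or more. The log2 difference of the medians was 5.29 with a pseudocount of 1 and 6.01 with 0.1. The number of marked positions stayed between 101 and 166, and the share of "T" between 36.1% and 44.4%. Positions with H3K27me3 or H3K9me3 depended on the window: 4 within 5 kb of the loci, 2 within 2 kb and 2 in the loci alone, while any overlap of at least 1 bp gave 12. The count of members with 3 or more "T" ran from 4 to 6 of 9 and was 3 of the 6 with coordinates of their own. These 6 include the row that MVD shares with CYBA, and FDFT1, whose own start could not be placed. The median number of "T" near the start was 2, but 5 within 5 kb, and, in counts added after seeing the data, 4 in the densest 4 kb and 3.5 over the 6 members with coordinates of their own. No paired analysis was possible because each assay has 1 sample. Without read counts or peak heights, neither the reads behind a position nor a stricter calling threshold could be examined, and genes merged in 1 row could not be separated.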

Other observations

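The windows of the members overlap 24 other named loci, 19 of them at 1 FPKM or more, as 51.4% of all named loci were. Of the 24, 5 share the coordinates of a member, and RUSC1 and MCM3AP are listed in more than 1 row. A higher FPKM than that of the member beside it was found at 0 of them. The members had a median percentile of 96.2 among all named loci, so few loci anywhere were above most of them. The neighbour with the highest FPKM was CTSB, a lysosomal protease gene that ends next to FDFT1 on chromosome 8, with 169.2 FPKM in run 1 and 165.3 in run 2, so FDFT1 was 1.31-fold higher. The closest in level was PBXIP1, beside PMVK, at 10.4 FPKM against 11.5. PKLR, the liver pyruvate kinase gene upstream of FDPS, was at 8.64 FPKM, and the stretch of 5 positions next to its listed start held 1 "T" and 4 positions with H3K27ac but no H3K4me3. Over LSS, the window also took in the start of C21orf56, which had 5 positions with H3K4me3 alone, 1 with H3K4me3/H3K9ac and no "T", at 3.23 FPKM.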
